A study of Mus musculus with 2 samples.

Results

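The genes described here are 33 genes of the cell cycle, taken by symbol from a list and each matched exactly once among the 27998 genes measured. They were divided by textbook role into 14 genes of DNA replication (S phase members), 16 genes of the passage through G2 and mitosis (mitosis members) and 3 genes that belong to neither list (Hmgb2, Stmn1 and Tuba1b). Their transcripts were counted in cells from calvarial bone defects, lineage by lineage, and the lineages were gated cell by cell on marker genes. A cell was called cycling when Mki67 and Top2a together gave at least 2 UMIs, a UMI being 1 counted transcript molecule.

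A dividing cell first copies its DNA in S phase and later separates the copies in mitosis, and each step draws on its own set of transcripts. E2F factors switch on the replication genes when a cell commits to division, whereas the genes of G2 and mitosis are repressed by the DREAM complex in resting cells and activated later by NF-Y, B-Myb with the MuvB complex, and FoxM1. In bone marrow, the large pre-B cells, the granulocyte precursors and the erythroblasts are known as dividing stages, while mature neutrophils have left the cycle and small pre-B cells are described as resting.

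The promoters of the members are shown first, because the replication and mitosis genes also differed in what their promoters hold. RefSeq promoter sequences (build GRCm38.p6, 250 bases before to 50 bases after the start) were found for 26 of the 33 members, and were searched on both strands for the CHR motif TTTGAA, the NF-Y motif CCAAT and 4 spellings of an E2F motif (the spelling TTCCCGC, the spelling TTCGCGC, the spelling TTGCCGC and the spelling TTGGCGC). The 150 bases before the start are printed 5′ to 3′ for 5 mitosis members and 3 S phase members, with every match on either strand in capitals. Where the GENCODE gene begins further upstream than the RefSeq start (Cdk1 and Cdc20), the window ends before the GENCODE start.
Top2a (chr11:99024190-99024339, minus strand): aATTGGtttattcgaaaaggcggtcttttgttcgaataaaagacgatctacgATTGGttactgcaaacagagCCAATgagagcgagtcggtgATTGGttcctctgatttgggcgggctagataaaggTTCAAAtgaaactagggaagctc
Mki67 (chr7:135716380-135716529, minus strand): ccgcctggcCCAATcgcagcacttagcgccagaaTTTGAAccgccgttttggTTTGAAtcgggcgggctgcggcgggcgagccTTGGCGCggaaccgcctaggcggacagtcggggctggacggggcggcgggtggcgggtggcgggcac
Cdk1 (chr10:69352939-69353088, minus strand): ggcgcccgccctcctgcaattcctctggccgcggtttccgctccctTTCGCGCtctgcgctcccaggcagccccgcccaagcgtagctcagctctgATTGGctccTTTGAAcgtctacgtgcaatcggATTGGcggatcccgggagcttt
Ccnb2 (chr9:70421555-70421704, minus strand): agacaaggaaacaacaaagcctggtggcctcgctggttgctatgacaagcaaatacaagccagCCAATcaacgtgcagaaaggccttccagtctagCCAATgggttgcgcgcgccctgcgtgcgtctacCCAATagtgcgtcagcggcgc
Cdc20 (chr4:118437353-118437502, minus strand): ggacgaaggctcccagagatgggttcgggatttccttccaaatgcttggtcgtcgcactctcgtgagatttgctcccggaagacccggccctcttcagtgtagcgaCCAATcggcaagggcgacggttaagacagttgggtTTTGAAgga
Mcm6 (chr1:128359706-128359855, minus strand): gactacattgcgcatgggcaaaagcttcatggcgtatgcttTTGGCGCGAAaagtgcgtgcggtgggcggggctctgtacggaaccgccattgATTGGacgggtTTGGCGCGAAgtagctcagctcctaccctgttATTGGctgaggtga
Mcm5 (chr8:75109359-75109508, plus strand): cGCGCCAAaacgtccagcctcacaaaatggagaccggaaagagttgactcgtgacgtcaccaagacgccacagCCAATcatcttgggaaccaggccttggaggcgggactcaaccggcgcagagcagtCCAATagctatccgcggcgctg
Rrm1 (chr7:102441545-102441694, plus strand): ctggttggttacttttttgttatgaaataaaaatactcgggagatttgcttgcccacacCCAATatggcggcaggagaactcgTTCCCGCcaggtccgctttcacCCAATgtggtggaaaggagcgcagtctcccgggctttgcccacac
The printed Top2a, Mki67, Cdk1 and Cdc20 windows each hold the CHR motif, and that of Ccnb2 holds 3 CCAAT motifs (its CHR motifs lie outside the printed bases). The 3 S phase windows hold no CHR motif and each hold an E2F motif. In the Mcm6 window, 2 runs each hold 2 E2F spellings that overlap on opposite strands.

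Over the whole 300-base windows, the CHR motif was in 9 of 13 windows of mitosis members (69.2%) and in 1 of 12 windows of S phase members (8.33%), against 17.9% of 32851 windows of all genes. At least 1 CCAAT motif was in 12 of 13 mitosis windows (92.3%), in 9 of 12 S phase windows (75%) and in 37.4% of all windows. At least 2 CCAAT motifs were in 11 of 13 mitosis windows (84.6%), in 5 of 12 S phase windows (41.7%) and in 11.7% of all windows. An E2F motif was in 8 of 12 S phase windows (66.7%), in 3 of 13 mitosis windows (23.1%) and in 9.57% of all windows. The 12 S phase windows belong to 11 genes, since Mcm7 has 2 starts. Cdk1 and Mki67 were the 2 mitosis members with both an E2F and a CHR motif. Birc5, Ccne1, Tyms and Tuba1b held none of the 3 motifs in their windows. These are matches of letters in a fixed window, not measured binding sites.

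**Figure D1:**
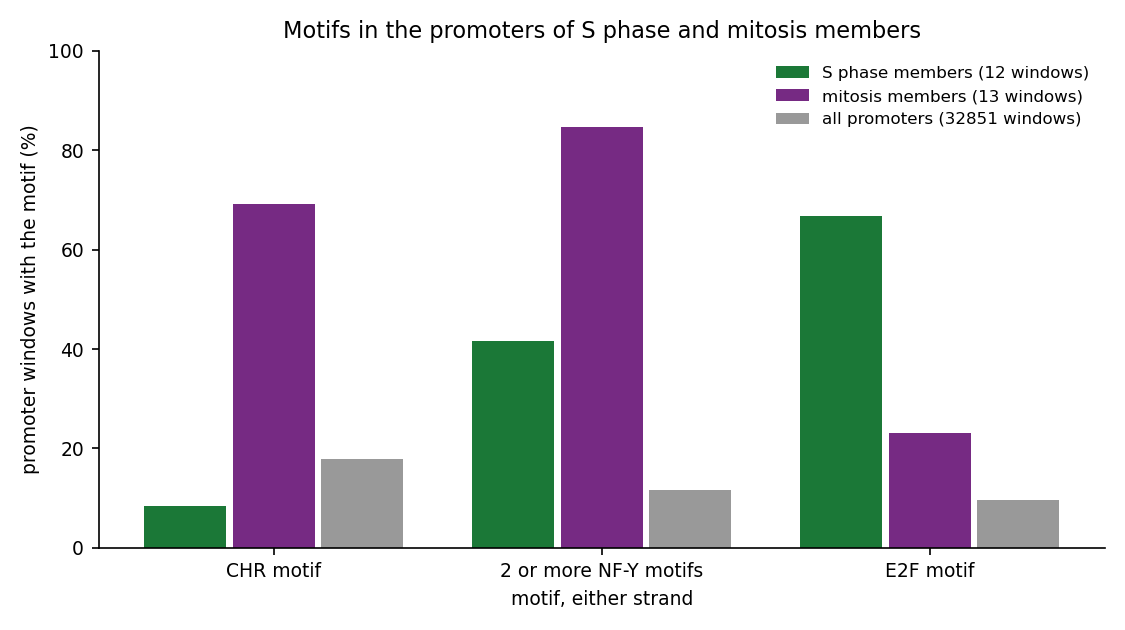
Share of 300-base promoter windows (%, bars) that hold the CHR motif, at least 2 NF-Y motifs (CCAAT) or an E2F motif on either strand. Bars are for S phase members, mitosis members and all RefSeq promoters. The CHR motif stands at 69.2% of mitosis windows and 8.33% of S phase windows, and the E2F motif at 23.1% and 66.7%.

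The study made 2 mm defects in the parietal bones of wild-type C57BL/6 mice and filled them with a hydrogel labelled CGG or one labelled CGG-Cit; the labels do not spell these names out. On day 14 the defect tissue was digested with collagenase, and single cells were sequenced with 10x Chromium 3′ kits, 1 library per hydrogel. Both groups carried a hydrogel, how many mice went into each library is not stated, and a defect without hydrogel was not analysed here. With 1 library per hydrogel there is no replicate check: no test was made, all intervals are 95% intervals for counting error only, and a difference between the hydrogels cannot be told apart from one between the libraries.

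After filtering, the CGG library held 11048 cells (median 3969 UMIs) and the CGG-Cit library 9994 cells (median 5913.5 UMIs), and 34 barcodes occurred in both. The gate placed 81.3% and 91.8% of the cells in a lineage, and clusters made without cell cycle genes gave the same lineage for 95.3% of the 17634 cells named by both routes. Lineage makeup differed: the mesenchymal lineage had 2806 cells in CGG and 45 in CGG-Cit, and the B lineage 938 and 3780. Lineages under 50 cells in a library were not described by level, which leaves mesenchymal, endothelial and mural cells to CGG. Mesenchymal marker RNA was also present in the haematopoietic cells of CGG (2600 CPM, UMIs per 1000000 UMIs, over the non-cycling B-lineage cells, against 49.8 CPM in CGG-Cit); its part in the results was not tested.

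Cycling cells were most frequent among myeloid progenitors and erythroid cells and least frequent, of the lineages measured in both libraries, among T and NK cells. Over all cells, 17.8% were cycling in CGG and 31.3% in CGG-Cit. The share was 81.8% of 77 myeloid progenitors in CGG and 92.3% of 362 in CGG-Cit. Among erythroid cells it was 57.0% of 674 and 55.1% of 947. Both stood above the other lineages in each library, although the interval of mast cells and basophils in CGG-Cit reached that of the erythroid cells. B-lineage cells had 15.9% in CGG and 29.7% in CGG-Cit, and neutrophils 17.0% in both. T and NK cells had 7.59% of 685 cells in CGG and 8.40% of 512 in CGG-Cit. Mature neutrophils, which do not divide, gave 0.742% of 674 cells and 0.740% of 1622, and served as the level that free RNA can give at median depths of 4005.5 and 4360.5 UMIs. All lineages named so far lay above that level, with T and NK cells the lowest.

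Depth changes these shares, so each cell was also thinned to 2000 UMIs, leaving out shallower cells. Myeloid progenitors, with median depths of 28819 and 34915.5 UMIs, were then at 31.9% in CGG and 35.1% in CGG-Cit, below erythroid cells at 47.4% and 37.5%. B-lineage cells were at 14.9% of 744 cells and 29.7% of 3274 (194 and 506 cells were left out), and the same cells unthinned at 19.1% and 33.7%. At equal depth the erythroid cells came first in both libraries, with an interval that overlapped that of the myeloid progenitors in CGG-Cit. Neutrophils stood at 11.4% and 12.0% and T and NK cells at 4.71% and 4.45%, both below the B lineage.

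**Figure D2:**
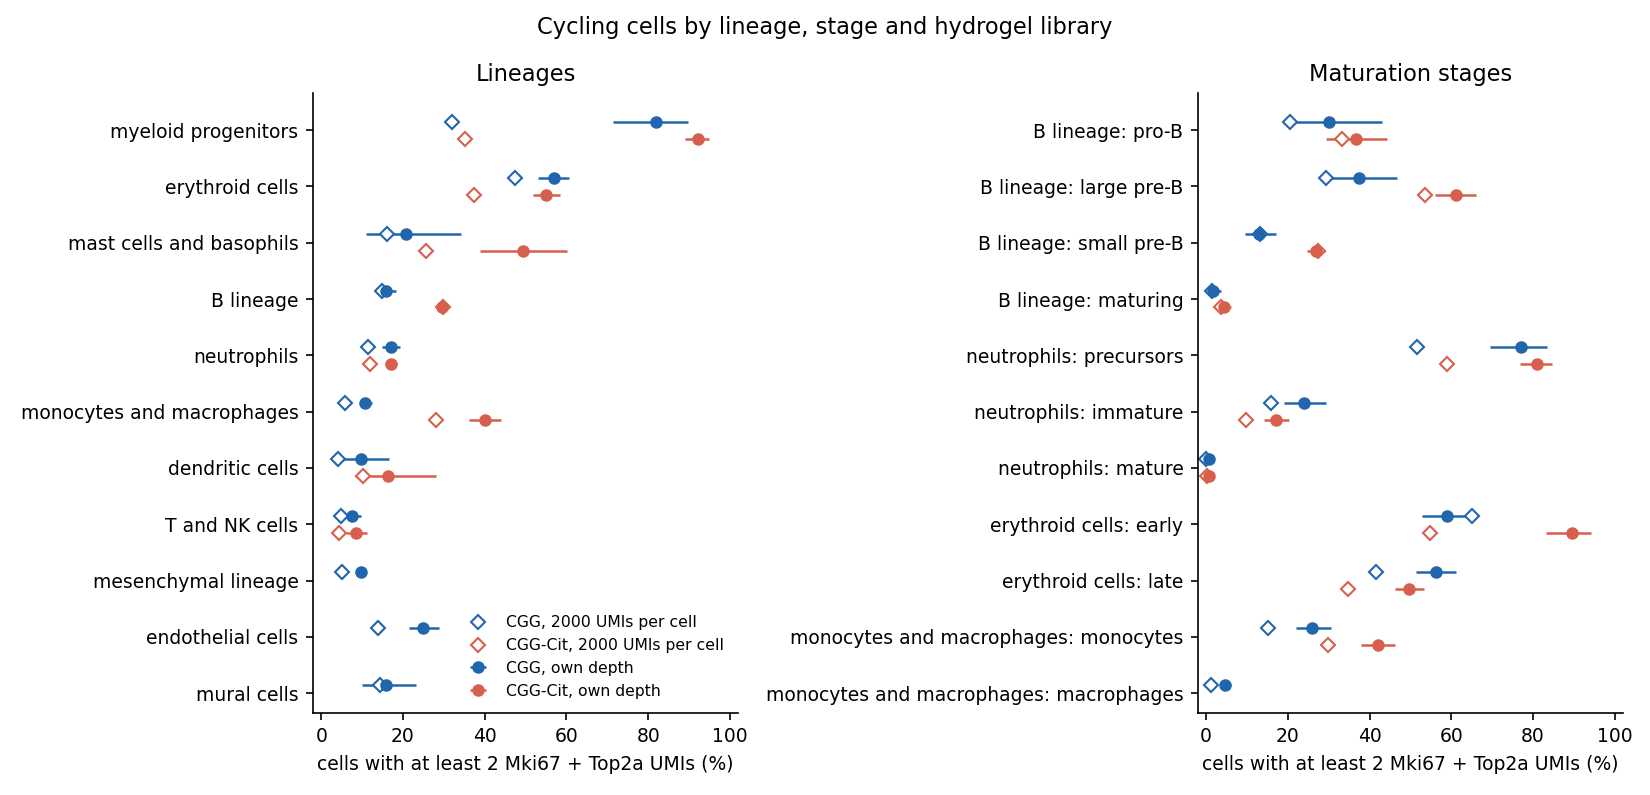
Share of cycling cells (%, horizontal axis) by lineage (left) and maturation stage (right) in each library, for groups of at least 50 cells. Filled circles are cells at their own depth with exact 95% intervals, and open diamonds are cells thinned to 2000 UMIs; B-lineage cells stand at 15.9% in CGG and 29.7% in CGG-Cit, and neutrophils at 17.0% in both.

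Among the S phase members, the B lineage, the myeloid progenitors and the erythroid cells carried the highest summed levels in both libraries. In CGG the sum of the 14 members was 1647 CPM in myeloid progenitors (1593 to 1703), 1583 CPM in the B lineage (1544 to 1623) and 1537 CPM in erythroid cells (1507 to 1569), so that neighbours in this order overlapped. In CGG-Cit the order was 1908 CPM in the B lineage, 1649 CPM in myeloid progenitors and 1592 CPM in erythroid cells. Neutrophils had 466 and 517 CPM, T and NK cells 582 and 560 CPM. The lowest sum was 238 CPM, in the mesenchymal lineage of CGG.

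The 6 members of the MCM helicase, which is loaded at replication origins, were highest in myeloid progenitors or in the B lineage in both libraries. Mcm5 stood at 151 CPM in CGG and 143 CPM in CGG-Cit in myeloid progenitors, 110 and 116 CPM in the B lineage, and 30.8 and 31.6 CPM in neutrophils. Mcm6 reached 198 and 171 CPM in myeloid progenitors, against 25.7 and 24.5 CPM in neutrophils. Both were lowest of all in the mesenchymal lineage in CGG, at 7.98 CPM for Mcm5 and 22.1 CPM for Mcm6. Pcna, the sliding clamp of DNA polymerase, was highest in the B lineage in both libraries (298 and 324 CPM) and spanned only 4.88-fold between its highest and lowest lineage in each library.

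Rrm2, the regulated subunit of ribonucleotide reductase that makes deoxynucleotides, was instead highest in erythroid cells, at 332 CPM in CGG and 314 CPM in CGG-Cit, with 206 and 300 CPM in the B lineage. Tyms, which makes thymidylate, stood at 97.2 and 107 CPM in erythroid cells. Cyclin E drives entry into S phase: Ccne1 was at 45.4 and 68.5 CPM in erythroid cells and at 21.7 and 23.1 CPM in the B lineage. Ccne1 and Rrm2 were thus both highest in erythroid cells in either library. Gmnn (geminin), which blocks a second loading of origins, was at 132 and 136 CPM in erythroid cells, 143 and 174 CPM in myeloid progenitors, and 125 and 197 CPM in the B lineage. Cdc6, which loads the helicase, was at 49.8 and 51.7 CPM in erythroid cells and below 10 CPM in neutrophils (7.52 and 5.89 CPM).

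Among the mitosis members the order was different. In CGG the sum of the 16 members was highest in erythroid cells (3878 CPM), followed by 3460 CPM in mast cells and basophils (53 cells), 2926 CPM in the B lineage and 2463 CPM in myeloid progenitors. In CGG-Cit the B lineage came first with 5289 CPM, followed by erythroid cells with 3768 CPM, mast cells and basophils with 3685 CPM (91 cells) and monocytes and macrophages with 3346 CPM. Neutrophils reached 1591 and 1945 CPM, well above T and NK cells at 714 and 778 CPM, although their S phase sums were the lower of these lineages. By gene, 8 of the 16 members had their highest level in erythroid cells in CGG, while 12 of 16 were highest in the B lineage in CGG-Cit. Top lineages were not counted over all genes, so these counts are not read as particular to the members. Of 7292 genes, 37.5% were more than 1.5-fold higher in the B lineage than in the other gated cells in both libraries.

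Mki67, which coats mitotic chromosomes, was at 898 CPM in CGG and 709 CPM in CGG-Cit in erythroid cells, and at 503 and 837 CPM in the B lineage. Top2a, which untangles sister DNA, was at 378 and 315 CPM in erythroid cells and 582 and 927 CPM in the B lineage. Erythroid cells were thus above the B lineage in Mki67 in CGG, and below it in Top2a in both libraries. Ube2c, the ubiquitin carrier of the anaphase-promoting complex, was at 689 and 682 CPM in erythroid cells, at 291 and 620 CPM in the B lineage and at 174 and 234 CPM in neutrophils. Birc5 (survivin), a subunit of the chromosomal passenger complex, was at 437 and 453 CPM in erythroid cells and 235 and 448 CPM in the B lineage.

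Cks2, a small binding partner of the cyclin-dependent kinases, did not follow the other mitosis members. It was at 2062 CPM in the 53 mast cells and basophils of CGG and at 1246 CPM in the 91 of CGG-Cit, above every other lineage, and made up much of their mitosis sums of 3460 and 3685 CPM. In myeloid progenitors it was at 605 and 600 CPM. In mature neutrophils, Cks2 was still at 199 CPM in CGG and 205 CPM in CGG-Cit, where Mki67 was at 12.0 and 14.4 CPM and Top2a at 8.87 and 12.0 CPM. After thinning, 10.6% of 604 and 14.4% of 1469 mature neutrophils had at least 2 UMIs of mitosis members and fewer than 2 of S phase members, although 0 of 604 (exact upper bound 0.609%) and 0.136% of 1469 were called cycling.

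The 3 members outside both lists were all highest in the B lineage in both libraries. Hmgb2, a chromatin protein, was at 3277 and 4973 CPM there and at 1280 and 1357 CPM in mature neutrophils, where 96.7% and 97.7% of the cells had a UMI. Stmn1 (stathmin), which destabilises microtubules, was at 1018 and 1812 CPM in the B lineage and 12.99 and 34.6 CPM in mature neutrophils. Tuba1b, an alpha tubulin, was at 766 and 1136 CPM in the B lineage and 339 CPM in the mesenchymal lineage of CGG; its level is uncertain, because alpha tubulin genes are near-identical and no source used here says how shared reads were handled. In the mesenchymal lineage of CGG, 65.7% of the cells had a Hmgb2 UMI at 205 CPM (median depth 3144 UMIs), so a share with a UMI is high for this gene also where its level is low.

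**Figure D3:**
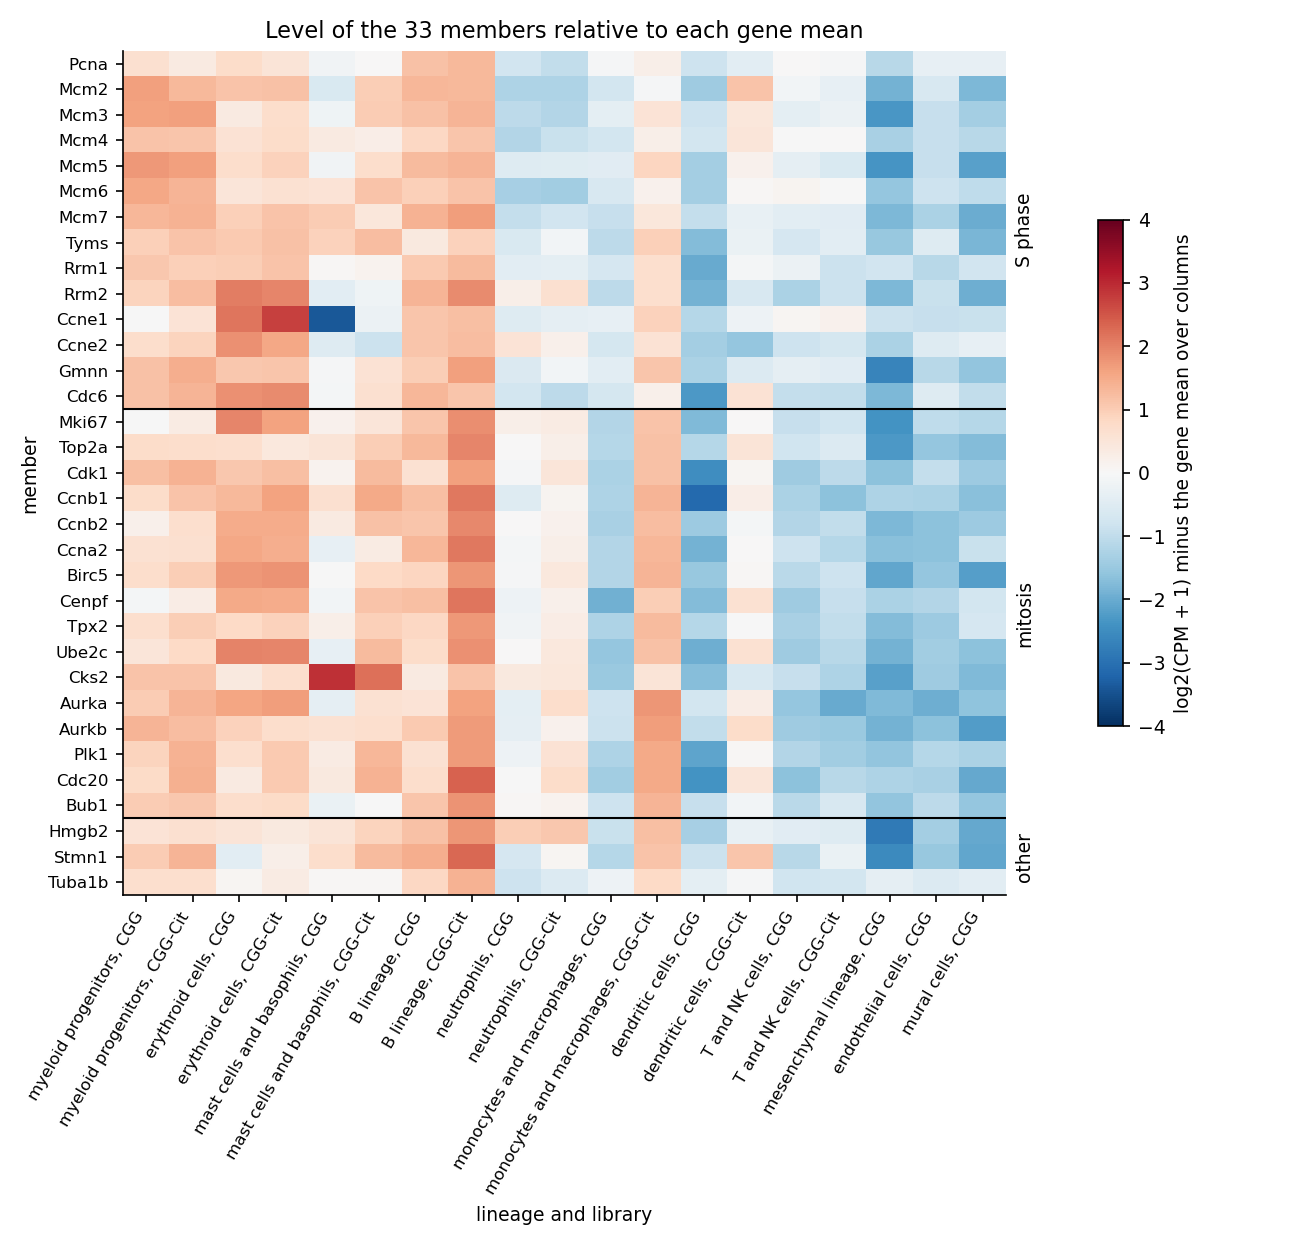
Level of each member (rows) in each lineage and library (columns), as log2(CPM + 1) minus the gene's own mean over the 19 columns; red is above and blue below that mean. The B lineage, erythroid and myeloid progenitor columns are red for most members, and Cks2 stands out in mast cells and basophils (2062 CPM in CGG).

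Set against the other gated cells of the same library, the B lineage had 10 of 14 S phase members and 14 of 16 mitosis members higher by more than 1.5-fold in both libraries, where 37.5% of all 7292 genes tested were so called. In erythroid cells 5 of 14 S phase members and 3 of 16 mitosis members were higher, against 6.12% of genes; globin took 60.3% and 54.8% of their UMIs, and 65.7% of genes were lower. With globin left out of the totals, erythroid cells were at 3869 and 3521 CPM for the S phase members and at 9758 and 8335 CPM for the mitosis members, above the B lineage on that scale (1594 and 1924 CPM, and 2946 and 5332 CPM). Myeloid progenitors had 7 of 13 measured S phase members higher and 0 of 16 mitosis members, against 23.8% of genes. The median log2 ratio of their mitosis members to the other gated cells was 1.35 in CGG and -0.13 in CGG-Cit. A count over both libraries therefore does not mean an equal level in each. The other gated cells also differed in makeup between the libraries. In T and NK cells 11 of 14 measured mitosis members and 2 of 13 S phase members were lower, against 12.1% of genes. In neutrophils 7 of 13 S phase members and 0 of 16 mitosis members were lower, against 47.1% of genes. The median log2 ratio of their mitosis members was 0.49 in CGG and -1.02 in CGG-Cit. The mesenchymal lineage of CGG was lower in all 13 S phase and all 15 mitosis members measured, where 23.0% of genes were lower. Endothelial cells (5 of 13 and 12 of 14, with 15.2% of genes), mural cells (8 of 12 and 10 of 14, with 16.7%) and dendritic cells (6 of 11 and 9 of 14 in both libraries, with 8.50%) were also on the lower side.

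The balance of the lists was summarised as mitosis member UMIs over S phase member UMIs. The sums hold different genes, so the value has a meaning only between groups of cells. It was 3.41 in CGG (3.30 to 3.54) and 3.77 in CGG-Cit (3.69 to 3.84) in neutrophils, 2.52 and 2.37 in erythroid cells, 1.495 and 1.69 in myeloid progenitors, and 1.23 and 1.39 in T and NK cells. Between the libraries it was nearest in erythroid cells and farthest apart in monocytes and macrophages (1.25 and 3.16), with the B lineage at 1.85 and 2.77. The lowest value of any stage was 0.532 (0.498 to 0.569), in the 986 macrophages of CGG, whose S phase members summed to 280 CPM and mitosis members to 149 CPM.

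The balance also differed between maturation stages. In the B lineage the ratio was 1.67 in CGG and 2.14 in CGG-Cit at the large pre-B stage, marked by the surrogate light chain genes, and 2.53 and 4.49 at the small pre-B stage, marked by Rag1 and Rag2. Over the same step the S phase sum went from 2386 to 1151 CPM in CGG and from 2612 to 1314 CPM in CGG-Cit. The mitosis sum went from 3979 to 2911 CPM in CGG, and from 5602 to 5900 CPM in CGG-Cit. Cycling cells were 37.3% of 118 large pre-B cells and 12.97% of 316 small pre-B cells in CGG, and 61.0% of 385 and 26.9% of 1567 in CGG-Cit, so the cells gated as small pre-B by Rag1 and Rag2 held many cycling cells. At the maturing stage they were 1.56% of 321 and 4.26% of 727 cells, and the ratio was 1.197 and 2.80.

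In neutrophils the S phase sum stood at 1145 and 1196 CPM in the precursors, 402 and 239 CPM in immature cells, and 59.2 and 58.6 CPM in mature cells. The mitosis sum was 3602 and 4074 CPM in precursors, 1558 and 1330 CPM in immature cells, and 252 and 299 CPM in mature cells. The ratio was 3.15 and 3.41 in precursors, 3.87 and 5.55 in immature cells, and 4.25 and 5.11 in mature cells. In mature cells most of the mitosis sum was Cks2, which did not follow the other mitosis members. The mature ratio is therefore not read as a shift of the whole list. Cycling cells were 77.0% of 152 precursors in CGG and 81.0% of 415 in CGG-Cit, and 24.0% of 288 and 17.1% of 598 immature cells. Among erythroid cells the ratio was 1.46 and 1.47 at the early stage and 3.79 and 3.81 at the late stage. The CGG cells gated as early erythroid were shallow (median 2302 UMIs, against 30344 in CGG-Cit) and carried Col1a1 at 2298 CPM (1.77 CPM in CGG-Cit) and Kit at 9.20 CPM (60.7 CPM in CGG-Cit), so their cycling shares of 59.0% and 89.6% are not read as a difference.

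**Figure D4:**
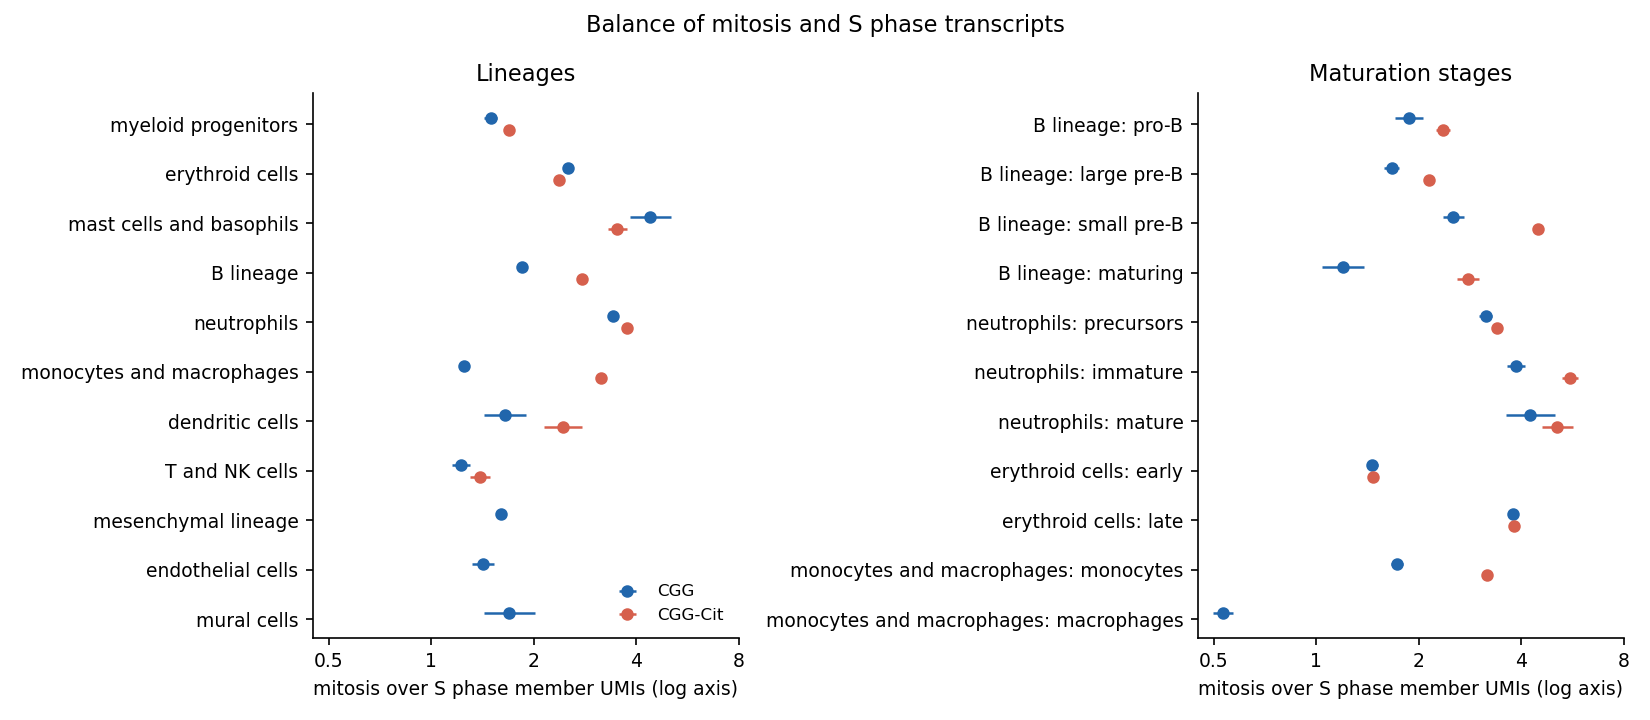
Mitosis member UMIs over S phase member UMIs (horizontal log axis) by lineage (left) and maturation stage (right), with 95% counting intervals; lines shorter than the point are hidden by it. Monocytes and macrophages stand at 1.25 in CGG and 3.16 in CGG-Cit, erythroid cells at 2.52 and 2.37, and CGG macrophages lowest at 0.532.

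Between the hydrogels, B-lineage cells of CGG-Cit carried more mitosis transcript, while S phase transcript was higher by less. Cdc20, the activator of the anaphase-promoting complex, was at 48.0 CPM in CGG and 154 CPM in CGG-Cit, a 3.20-fold difference (2.76 to 3.73). Plk1, a kinase of mitotic entry and exit, was at 30.7 and 66.4 CPM (2.17-fold), and Aurka, a spindle pole kinase, at 24.3 and 52.4 CPM (2.16-fold). Cdc20 lay farthest from equal of the 33 members. Cdk1, the mitotic kinase, was at 106 and 217 CPM (2.05-fold), and its cyclins Ccnb1, Ccnb2 and Ccna2 were 1.90-fold, 1.75-fold and 1.73-fold higher in CGG-Cit.

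All 16 mitosis members were higher by more than 1.5-fold in CGG-Cit in the B lineage, where 4.16% of 7620 genes were higher and 10.3% were lower past the same fold. Their median log2 ratio was 0.92 (lowest 0.64, Aurkb) and their sum 1.81-fold higher (1.77 to 1.84). Of the 14 S phase members, only Gmnn passed 1.5-fold (125 and 197 CPM), and the median log2 ratio was 0.18. Mcm2 stood at 87.6 and 86.1 CPM, Mcm5 at 110 and 116 CPM and Pcna at 298 and 324 CPM. The S phase sum was 1.21-fold higher (1.17 to 1.24). The median of all genes was -0.03; a median-of-ratios scaling, which sets the typical gene to equal, adds 0.16 to every log2 ratio, and then 16 mitosis and 3 S phase members passed, with 58.0% of the genes past 1.5-fold on the higher side in place of 28.7%.

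Within B-lineage stages the mitosis members again had the higher median. At the small pre-B stage 16 of 16 mitosis members were past 1.5-fold higher in CGG-Cit (7.66% of genes) and 1 of 14 S phase members, with medians of 1.04 and 0.05. At the large pre-B stage it was 6 of 16 and 0 of 14 (4.05% of genes), with medians of 0.55 and 0.06; under the median-of-ratios scaling the count of mitosis members there was 13, and the higher side held 50.3% of the genes past 1.5-fold in place of 21.0% (57.2% in place of 36.1% at the small pre-B stage). At the maturing stage all 14 measured mitosis members were past 1.5-fold higher, with 12.0% of genes. The difference in cycling share was 23.8 percentage points at the large pre-B stage (13.5 to 33.2), 14.0 points at the small pre-B stage (9.28 to 17.9) and 2.71 points at the maturing stage (0.32 to 4.65; 2.04 points, -0.57 to 4.03, at equal depth). At the pro-B stage it was 6.47 points (-7.52 to 18.9), an interval that included 0. Over the whole lineage it was 13.8 points (10.9 to 16.4), and 14.8 points at equal depth. Stage makeup differed too: maturing cells were 321 of 938 in CGG and 727 of 3780 in CGG-Cit, and cells in no stage 120 and 929. The part of this makeup in the values of the whole lineage was not tested. Within the cycling B-lineage cells alone (149 and 1121 cells), the mitosis members other than Mki67 and Top2a summed to 4064 CPM in CGG and 5678 CPM in CGG-Cit. The S phase members in those cells summed to 3279 and 2958 CPM. The ratio without Mki67 and Top2a was 1.24 and 1.92, in cells that were still chosen by these mitosis members.

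**Figure D5:**
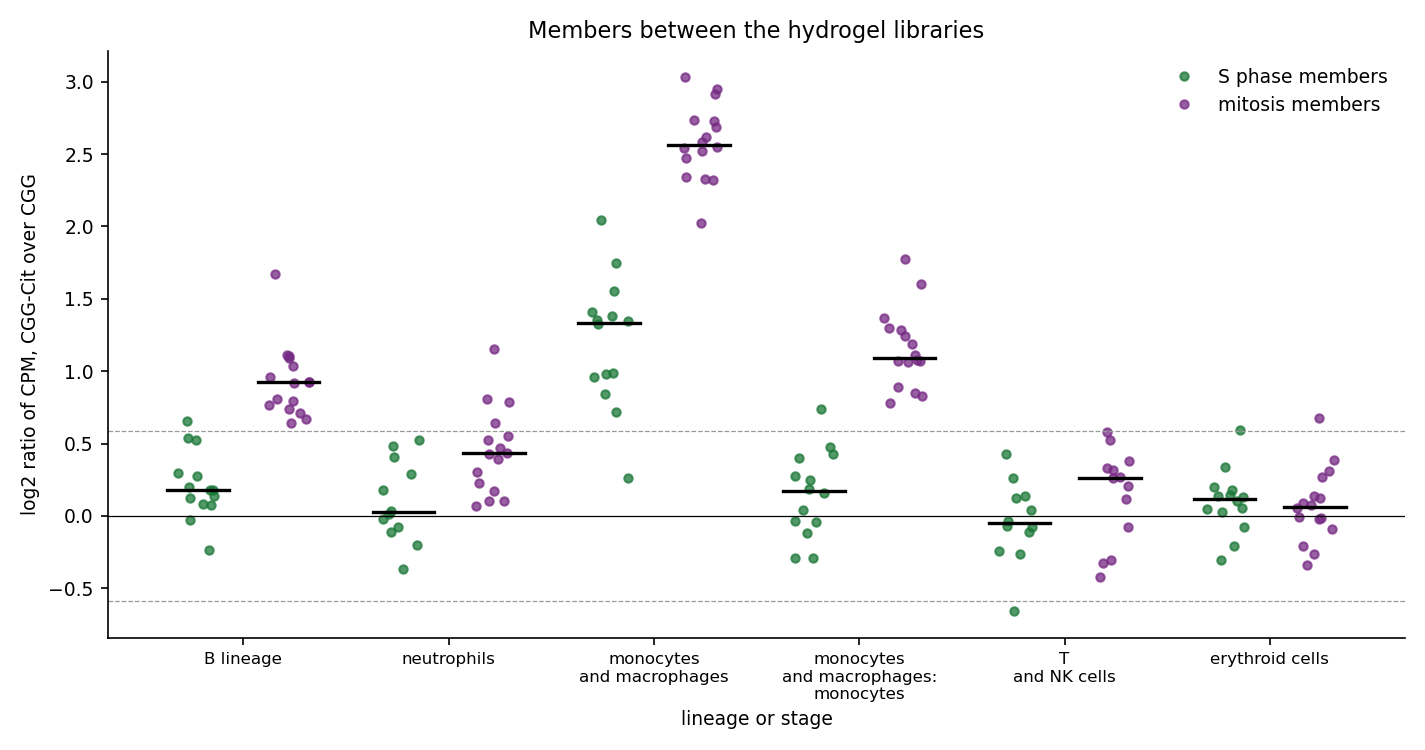
Log2 ratio of CPM, CGG-Cit over CGG (vertical axis), of each measured S phase (green) and mitosis (purple) member in 5 lineages and in the monocyte stage; black bars are medians and dashed lines mark 1.5-fold. Mitosis members lie above S phase members in the B lineage (medians 0.92 and 0.18) and in monocytes (1.09 and 0.17), and the lists overlap in erythroid cells.

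Monocytes and macrophages differed most between the libraries. Cycling cells were 10.8% of 1767 in CGG and 40.0% of 613 in CGG-Cit, a difference of 29.2 points (25.1 to 33.3; 22.2 points at equal depth). All 16 mitosis members and 13 of 14 S phase members were higher by more than 1.5-fold in CGG-Cit, where 20.2% of genes were higher and 17.2% lower, and the median log2 ratios were 2.57 and 1.34. Pcna, at 129 and 154 CPM, was the 1 S phase member within 1.5-fold. The makeup of the lineage moved with this: macrophages were 986 cells in CGG and 19 in CGG-Cit, while monocytes were 423 and 573 cells. Of the macrophages, 4.56% cycled in CGG and 15.8% (3.38 to 39.6) of the 19 in CGG-Cit.

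Within monocytes the S phase members were close to equal and the mitosis members were not. Cycling cells were 26.0% and 42.1% of monocytes, a difference of 16.1 points (10.1 to 21.7). Cdc20 was at 25.5 CPM in CGG and 87.7 CPM in CGG-Cit (3.44-fold), Cenpf, a kinetochore protein, at 62.8 and 191 CPM (3.04-fold), and Plk1 at 23.6 and 61.3 CPM (2.59-fold). All 16 mitosis members were past 1.5-fold higher (5.81% of genes) with a median of 1.09. Of the S phase members 1 of 14 passed, Tyms at 55.8 and 93.5 CPM, and Pcna was at 192 and 157 CPM. In the cycling monocytes (110 and 241 cells), S phase members summed to 1895 and 1613 CPM. The mitosis members other than Mki67 and Top2a summed to 2214 and 3651 CPM there, in cells chosen by Mki67 and Top2a.

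Neutrophils as a lineage showed no difference in cycling share (0.02 points, -2.64 to 2.56). The mitosis members had a median of 0.43, with 4 of 16 past 1.5-fold higher (3.15% of genes, with 8.58% lower), namely Aurka, Plk1, Cdc20 and Ccnb1; the S phase members had a median of 0.02 with 0 of 12. The median-of-ratios scaling, a shift of 0.12, gave 7 of 16 and 2 of 12, with 51.1% in place of 26.8% of the genes past 1.5-fold on the higher side. Precursors had 3 of 16 mitosis members and 0 of 14 S phase members higher (3.76% of genes). Aurka was at 12.3 and 27.5 CPM, and Cdc20 at 28.4 and 49.1 CPM. Immature neutrophils went the other way for S phase members. Of 11 measured, 8 were lower by more than 1.5-fold in CGG-Cit, where 12.1% of genes were. Under the median-of-ratios scaling it was 6 of 11 (52.2% of called genes higher in place of 22.8%). A separate list of replication genes did not show this count. Of its 14 measured genes, 2 were lower and 1 higher, with a median log2 ratio of -0.35. Pcna was at 71.1 CPM in CGG and 31.6 CPM in CGG-Cit, Mcm3 at 20.6 and 10.2 CPM, and Rrm1 at 41.5 and 21.2 CPM. Their mitosis members had a median of -0.12, 1 member past 1.5-fold higher (Aurka, 11.6 and 22.3 CPM, with 3.56% of genes) and 1 lower (Mki67, 263 and 175 CPM). The share of cycling cells among immature neutrophils differed by -6.90 points (-12.9 to -1.31).

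Erythroid cells and T and NK cells had members near equal between the libraries. In erythroid cells 1 of 16 mitosis members (Cdc20, 37.6 and 60.1 CPM) and 1 of 14 S phase members (Ccne1, 45.4 and 68.5 CPM) were past 1.5-fold higher, where 24.6% of genes were higher and 9.04% lower; under the median-of-ratios scaling Ccne1 no longer passed. Their cycling share differed by -1.85 points (-6.72 to 3.05), by -9.97 points at equal depth and by 5.60 points in cells with at least 500 detected genes, so its direction depended on the cells kept. Late erythroid cells had 0 of 16 and 0 of 14 members past 1.5-fold in either direction (1.04% of genes higher and 10.3% lower), and a cycling share that differed by -6.55 points (-12.4 to -0.59). Their summed levels turn direction with globin left out of the totals, from 961 and 894 CPM to 3798 and 3936 CPM for the S phase members and from 3640 and 3408 CPM to 14381 and 14998 CPM for the mitosis members. In T and NK cells 0 of 13 mitosis members passed and 1 of 12 S phase members was lower (Rrm1, 54.9 and 34.7 CPM), against 5.03% of genes higher and 11.4% lower. Their cycling share differed by 0.81 points (-2.26 to 4.05). Cdc20 was on the higher side in CGG-Cit in all 5 lineages compared, with log2 ratios from 0.58 to 3.03. So were Stmn1 (0.65 to 2.29) and Mcm4, Tyms, Cdk1, Birc5, Tpx2 and Tuba1b. The lowest log2 ratio of each gene after Stmn1 lay between 0.041 (Mcm4) and 0.14 (Cdk1), which is near equal. Genes on the higher side in all 5 lineages were not counted over all genes, so these members are not read as apart from other genes.

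Smaller lineages were compared by their shares and sums. Cycling mast cells and basophils were 20.8% of 53 in CGG and 49.5% of 91 in CGG-Cit, with median depths of 2510 and 10263 UMIs, and 16.1% and 25.6% at equal depth. Dendritic cells gave 9.84% of 122 and 16.4% of 61. At equal depth the interval of the difference included 0 in both, at 9.45 points (-8.91 to 23.0) and 5.97 points (-1.59 to 16.5). In dendritic cells the S phase members summed to 297 CPM in CGG (265 to 332) and 700.3 CPM in CGG-Cit (628 to 778), and the mitosis members to 489 CPM (447 to 533) and 1709 CPM (1596 to 1828). Both sums were thus higher in CGG-Cit beyond the counting error of UMIs, over 122 and 61 cells, of which 12 and 10 were cycling. These intervals leave out the spread between cells, and so few cycling cells can carry much of a sum. Subtypes also differed: by clusters, Siglech-marked dendritic cells were 50 in CGG and 90 in CGG-Cit, and those marked by Cd209a and Ccr7 203 and 54. The part of this makeup in the sums was not tested.

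Stromal cells of CGG held cycling cells together with haematopoietic transcripts. The share was 9.73% of 2806 cells in the mesenchymal lineage, 25% of 540 endothelial cells and 15.8% of 133 mural cells. Cycling mesenchymal cells carried the erythroid markers at a summed 647 CPM (185 CPM in the others) and neutrophil markers at 2525 CPM (1226 CPM). Cycling endothelial cells carried neutrophil markers at 9418 CPM (3938 CPM) and myeloid progenitor markers at 2955 CPM (790 CPM). Among the cells with the lower haematopoietic marker shares, taken as 1 part of each lineage split at its median, cycling cells were 5.20% of the mesenchymal lineage (4.10 to 6.50), 15.9% of endothelial cells (11.8 to 20.8) and 2.99% of mural cells (0.36 to 10.4). With cells named by clusters the mural share was 39.8%, and with the stricter gate 8.16%. How far cells of another type make up the stromal shares was not tested further. In CGG-Cit 2 of 45 mesenchymal, 3 of 49 endothelial and 1 of 12 mural cells were cycling, too few to compare.

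Transcripts of both steps often occurred in the same cell. At 2000 UMIs per cell, 14.7% of 744 B-lineage cells of CGG and 28.0% of 3274 of CGG-Cit had at least 2 UMIs of both lists. S phase members without mitosis members were in 8.47% and 6.29%, and mitosis members without S phase members in 8.20% and 12.4%. In monocytes the S phase class was 10.05% and 4.60% of cells and the mitosis class 9.31% and 19.1%, so the mitosis class was the larger in CGG-Cit. Late erythroid cells had 0.754% and 0.133% of cells with S phase members alone and 25.9% and 26.1% with mitosis members alone. T and NK cells showed the reverse, with 15.05% and 10.9% for S phase alone and 7.60% and 8.10% for mitosis alone.

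The other genes of the cell cycle, 130 genes in 4 lists, were counted in the same way. Of the other mitosis genes (kinesins, kinetochore and condensin genes), 41 of 49 measured were past 1.5-fold higher in CGG-Cit in the B lineage (4.16% of all genes) and 43 of 49 in monocytes (5.81% of all genes). Of the replication genes (origin, polymerase and clamp loader genes), 8 of 34 were higher in the B lineage and 7 of 32 in monocytes. Log2 ratios above 0 were found for 32 of the 34 in the B lineage (median 0.42), against 3604 of all 7620 genes (median -0.03). In monocytes 28 of the 32 were above 0 (median 0.35), against 3854 of all 7349 genes (median 0.02). Regulators of entry gave 3 higher and 1 lower of 24 in the B lineage, and inhibitors 2 higher and 2 lower of 14, where 4.16% of all genes were higher and 10.3% lower; with so few genes these counts are not read as apart from that share. Rfc4, a clamp loader subunit, was higher in all 5 lineages compared (71.5 and 128 CPM in the B lineage), and the histone gene H2afx in 4 (420 and 835 CPM). Gadd45b, a stress-induced growth arrest gene, was lower in all 5 (81.2 and 35.9 CPM in the B lineage, 359 and 157 CPM in T and NK cells). Cdkn1a (p21), an inhibitor of cyclin-dependent kinases, was lower in 4 (75.4 and 42.0 CPM in the B lineage), and the G1 cyclin gene Ccnd2 in 3. Cdkn2d (p19), another inhibitor, was higher in 3, at 143 and 252 CPM in the B lineage. Also higher in 3 were Anln, Asf1b, Cdc45, Cdca3, Fbxo5, Kif23, Kif2c, Nusap1, Rfc5, Spc24, Tk1 and Tubb4b. Genes past 1.5-fold in several lineages were not counted over all genes, so these genes are not read as apart from other genes.

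Across the 19 lineage and library columns the members followed each other closely, as a description over points that share 2 libraries. Birc5 had the highest correlation with the mean of the other members (r = 0.97), and Ccne1 (0.57), Ccne2 (0.75), Cks2 (0.77) and Pcna (0.77) the lowest. Outside the list, genes most like the mean of the members included Cdca3 (r = 0.98), Smc2 (0.98), Cdca8 (0.98), Lig1 (0.97), Ncapg (0.97), Rad51ap1, Fen1, Ube2t and Cenpe (0.96). In GRCm38, 5 members are on chromosome 2 (Pcna, Tpx2, Ube2c, Aurka and Bub1) and 4 each on chromosomes 7 and 11, where Cdc6 (chr11:98907801-98923940) and Top2a (chr11:98992943-99024189) lie near each other.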

How the data were processed

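The 33 members and all gene lists were chosen with earlier results of these data known. UMI counts per gene and cell were deposited by the authors as 10x matrices, 1 per hydrogel (2 libraries). Cell Ranger 4.0.0 made them per the file headers, while the submitters' processing notes name Cell Ranger 3.0 and the build mm10. No source used here says how reads shared by gene copies were handled. Cells with under 200 genes or over 20% mitochondrial UMIs were dropped, and doublets were removed with Scrublet in scanpy 1.11.5. Scrublet called 1 cell in CGG, so there the top scores were removed at 0.8% per 1000 barcodes (1231 cells, 10.0%); in CGG-Cit its own threshold removed 537 (5.10%).

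A cell joined the lineage with the best marker score if at least 3 markers stood out and the lead was at least 0.3 (log2). The scoring and stage rules, and the split into cycling and other cells, were set after seeing the data. UMIs were summed per lineage and library and divided by the total (CPM). Members with at least 10 CPM on average and 20 UMIs entered ratios, computed with 0.5 UMI added. Intervals are Clopper-Pearson, Newcombe, Poisson or conditional binomial (95%), for counting error only, since cells are not replicates. Ratio recovery was tested on simulated data. All 33 members were named. Other genes were the 10 most correlated and, from the other cell cycle lists, those past 1.5-fold in the same direction in at least 3 lineages. Of the most correlated genes, 1 is not reported here. Alternatives varied doublets, gate, depth, scaling and thresholds.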

Additional observations from a re-analysis of the deposited data

Results flagged for a closer look

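The summed levels of the members were lower in CGG-Cit in some stages while they were higher in others, which drew a closer look; with 1 library per hydrogel the difference between stages was not tested. In immature neutrophils the S phase sum was 0.595 times (0.553 to 0.641) and the mitosis sum 0.854 times the CGG level. In late erythroid cells the S phase sum was 0.930 times and the mitosis sum 0.936 times the CGG level. With globin (74.7% and 77.3% of their UMIs) left out of the totals, both late erythroid sums were instead higher in CGG-Cit, at 3798 and 3936 CPM for the S phase members and 14381 and 14998 CPM for the mitosis members. Large pre-B cells and monocytes lay on the other side, at 1.09 and 1.11 times for the S phase sum and 1.41 and 2.05 times for the mitosis sum.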

How the results depend on the processing

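With 1 library per hydrogel, no library could be left out in turn, and no spread between animals could be measured. No paired analysis was possible because each group has 1 library. Depth limits the shares of deep and shallow lineages, and stromal comparisons rest on at most 49 CGG-Cit cells in a lineage. Of the values that compare the hydrogels, 93 stayed within their counting interval under an alternative, 66 moved and 7 turned direction; the cause was not tested. All values below are CGG-Cit over CGG on the log2 scale, or points for shares, and the median mitosis log2 ratio of the B lineage and of monocytes and macrophages stayed above 0 in every alternative.

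With the stricter gate, the summed members were at 0.73 in the B lineage, 0.18 in neutrophils, 2.29 in monocytes and macrophages and 0.0081 in T and NK cells. The mitosis-to-S difference was 0.64 in the B lineage and 1.72 in monocytes and macrophages, and the S phase median 1.61 in the latter. The mitosis medians were 1.004 in the B lineage, 0.38 in neutrophils, 3.11 in monocytes and macrophages and 0.14 in T and NK cells. With clusters in place of the gate, the summed members were at 0.59 in the B lineage, 1.90 in monocytes and macrophages, 0.18 in T and NK cells and 0.041 in erythroid cells. The mitosis-to-S difference was then 0.50 in the B lineage and -0.0081 in erythroid cells, and the S phase median 0.056 in T and NK cells and 0.084 in erythroid cells. The mitosis medians were 0.82 in the B lineage, 2.50 in monocytes and macrophages, 0.35 in T and NK cells and 0.15 in erythroid cells.

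The mean CPM of single cells put the summed members at 0.94 in the B lineage, 0.11 in neutrophils, 1.66 in monocytes and macrophages and 0.14 in T and NK cells. Without Mki67 and Top2a, the mitosis-to-S difference was 0.67 in the B lineage, 1.41 in monocytes and macrophages and 0.026 in erythroid cells, where it turned direction. Median-of-ratios scaling gave S phase medians of 0.34 in the B lineage and 0.15 in neutrophils, and mitosis medians of 1.08 and 0.56.

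With predicted doublets kept, the summed members were at 0.26 in neutrophils, 0.16 in T and NK cells and -0.064 in erythroid cells. The mitosis-to-S difference (0.064) and the S phase median (-0.090) of erythroid cells turned direction, and their mitosis median was 0.037. The S phase medians of neutrophils and of monocytes and macrophages were 0.083 and 1.18, and the mitosis medians of the B lineage and neutrophils 0.89 and 0.47. In cells with at least 500 genes, erythroid cells had a share difference of 5.60 points, summed members at 0.054, and medians of 0.18 (S phase) and 0.12 (mitosis). The erythroid share difference was 4.41 points with at least 4 UMIs and -9.97 points after thinning, and without globin the summed erythroid members were at -0.19. For monocytes and macrophages the share difference was 24.8 points with at least 1 UMI and 22.2 points after thinning.

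Within stages, the S phase and mitosis medians were -0.0080 (turned) and 0.40 in pro-B, 0.055 and 0.55 in large pre-B, 0.053 and 1.04 in small pre-B, and 0.35 and 1.29 in maturing B cells. They were -0.050 and 0.27 in neutrophil precursors, -0.80 and -0.12 (turned) in immature and -0.72 and 0.33 in mature neutrophils. The mature values rest on 1 measured S phase member and 4 measured mitosis members. The S phase sum of mature neutrophils was 0.989 times the CGG level (0.832 to 1.18), so their S phase value is not read for the list. The medians were 0.038 and 0.00067 in early erythroid cells, -0.14 and -0.024 (both turned) in late erythroid cells, and 0.17 and 1.09 in monocytes. Of 76 alternative shares of single lineages, 6 moved by more than 1.5-fold, among them the dendritic cells of CGG, at 16.6% by clusters. The split by haematopoietic markers and the totals without globin were chosen after seeing the data.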

Other observations

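Cells outside the lineages also held cycling cells. The 2061 cells of CGG that the gate left without a lineage had 23.0% cycling cells, and the 824 of CGG-Cit had 39.1%. Among the cells removed as doublets the share was 22.3% of 1231 in CGG and 52.3% of 537 in CGG-Cit, above the 17.8% and 31.3% of the cells kept. Of the cycling cells kept, the B lineage made up 7.56% in CGG and 35.9% in CGG-Cit, the mesenchymal lineage 13.8% and 0.064%, and erythroid cells 19.5% and 16.7%. The B-lineage cells that the stage rule placed in no stage, which count in the lineage but in no stage comparison, were 33.3% cycling of 120 in CGG and 39.8% of 929 in CGG-Cit.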
